A study of Mus musculus with 40 samples.

Results

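The genes described here are 10 genes linked to water and sodium handling in the collecting duct of the kidney, or to its hormonal control. The genes are Aqp2, Aqp3, Aqp4, Avpr2, Scnn1a, Scnn1b, Scnn1g, Fxyd4, Sgk1 and Hsd11b1. They were chosen by symbol, and each matched 1 of the 55401 gene rows of the count table. All 10 passed the filter of a mean of at least 10 counts in each comparison. The table holds 40 libraries of renal cortex from male C57BL/6J mice, 5 in each of 8 groups. The animals were heterozygous Ins2-Akita mice, which are diabetic because of a mutated insulin gene that all their groups share, or their wild type (WT) littermates. In the ethanol arm, both genotypes received 10% ethanol in water or MitoGamide at 10 mg/kg in the same vehicle by daily gavage. In the water arm, both genotypes received water or MitoQ, a mitochondria-targeted antioxidant whose dose is not given in the sources used here. Treatment ran for 16 weeks, from 6 to 22 weeks of age. One library was made from each mouse, so that the groups hold separate animals.

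Principal cells line the collecting duct together with intercalated cells. Vasopressin binds the receptor encoded by Avpr2 on their blood side, and the cAMP that follows moves the water channel aquaporin 2 (Aqp2) to the urine side and raises transcription of its gene. Water leaves the cell through aquaporins 3 and 4 (Aqp3, Aqp4). Sodium enters through the epithelial sodium channel ENaC, built from the subunits encoded by Scnn1a, Scnn1b and Scnn1g, and leaves through the sodium pump, which the small membrane protein of Fxyd4 modulates. Aldosterone raises ENaC activity, in part through the kinase SGK1 (Sgk1), which keeps the ubiquitin ligase NEDD4-2 away from the channel. The enzyme that shields the mineralocorticoid receptor of principal cells from glucocorticoid is encoded by Hsd11b2. Hsd11b1 encodes its relative 11-beta-hydroxysteroid dehydrogenase 1, which regenerates active glucocorticoid and is known in the kidney mainly from the proximal tubule, so that it is a gene of the same hormone axis and not a marker of principal cells.

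Total estimated counts ranged from 9106650 to 24321400 per library, and no 2 libraries of a group were identical in the 80 pairs compared. Several libraries stood apart. The TMM factor, which scales libraries to a common level, was 0.505 in WT MitoQ replicate 3, 0.759 and 0.834 in Akita water replicates 2 and 5, and 0.853 in Akita MitoGamide replicate 5. The first principal component held 40.01% of the variance. Levels are given as CPM, counts-per-million values after TMM scaling. Slc14a2, the urea transporter of the inner medulla, reached 26.6 CPM in WT water replicate 1, 13.3 in WT MitoQ replicate 5 and 5.16 in WT MitoQ replicate 1, against a median of 0.276 CPM over all libraries. Some of the results are also given without one or more of these libraries. The principal cell markers outside the 10 genes (Hsd11b2, Npnt, Apela and Elf5) were detected in every library, as were all 6 markers of intercalated cells. In bulk tissue, fewer cells of a type and less RNA per cell cannot be told apart.

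Per kilobase of annotated exon, Aqp2 had the highest level in WT kidney, with a median of 30.6 CPM per kb over 20 libraries, followed by Aqp3 (23.5), Scnn1a (13.4), Sgk1 (11.3), Scnn1b (10.8), Hsd11b1 (10.7), Scnn1g (7.65), Fxyd4 (3.85), Avpr2 (1.70) and Aqp4 (1.24). The WT ranges of Sgk1 (7.20 to 23.7), Scnn1b (7.86 to 13.9) and Hsd11b1 (5.91 to 22.0) overlapped almost entirely, so that the order of these neighbours was not settled. Those of Aqp2 (13.3 to 61.75) and Aqp3 (16.7 to 36.2) overlapped as well, so that their order was not settled either. In Akita kidney the median of Aqp2 was 59.6 CPM per kb and that of Sgk1 was 25.4, against 29.7 for Aqp3. Hsd11b1 was at 6.25. These levels divide by the summed length of all exons of a gene, which understates genes with long unused exons. Divided instead by the longest annotated transcript, Hsd11b1 was at 23.0 CPM per kb in WT, next to Aqp3 at 24.4, and at 13.4 in Akita kidney, next to Scnn1b at 13.8. By the same length Sgk1 was at 17.9 in WT, above Scnn1a at 15.8, and at 40.2 in Akita kidney, above Aqp3 at 30.8. The places of Hsd11b1 and Sgk1 in the order therefore depend on the length used. The plot of levels by library shows the same 10 genes on the CPM scale that the remaining values use.

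**Figure D1:**
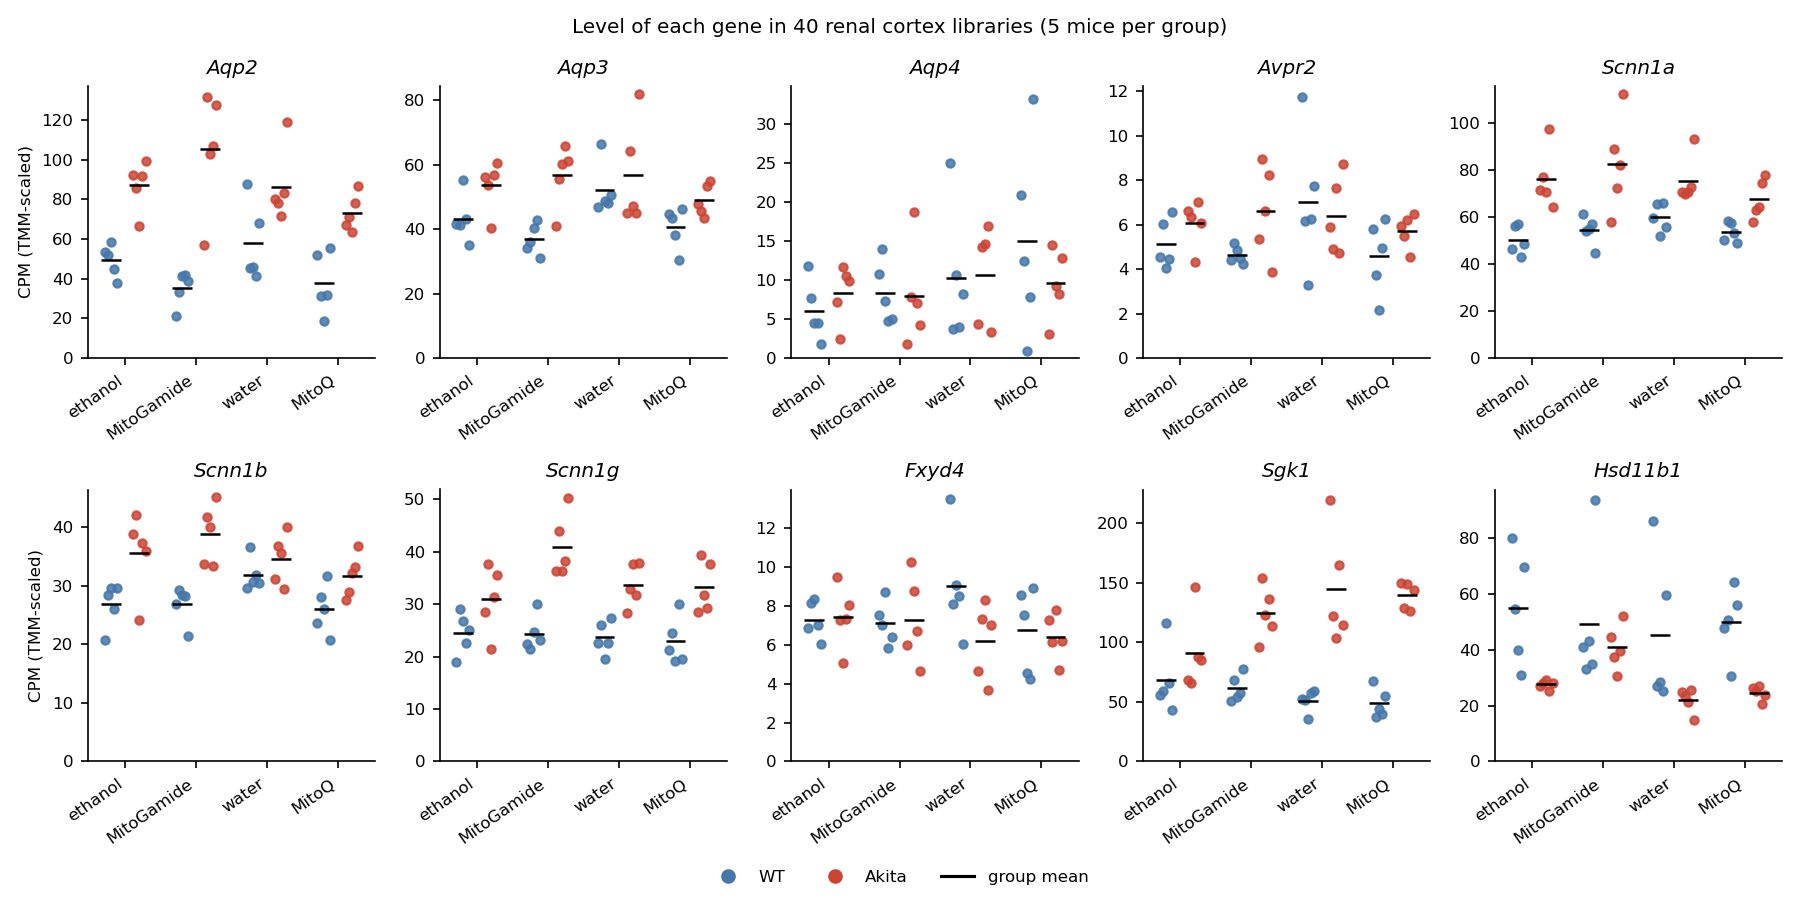
Level of each gene in CPM after TMM scaling (vertical axis, from 0) in WT (blue) and Akita (red) mice by treatment; each point is 1 library and the black line the mean of 5. Akita points lie above WT points for Aqp2 on the ethanol vehicle, MitoGamide and MitoQ and for Sgk1 on water, MitoGamide and MitoQ, whereas Aqp4 is scattered in both genotypes, from 0.865 to 33.2 CPM.

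The comparisons of Akita with WT mice on the ethanol vehicle, MitoGamide, water and MitoQ ask what diabetes does to these genes, and they share no library. Calls are adjusted p-values under 0.05 from edgeR's quasi-likelihood test over all genes. In mice on the ethanol vehicle, 3 of the 10 genes were higher in Akita mice (Aqp2, Scnn1a and Scnn1b) and 1 was lower (Hsd11b1), where 8.18% of all genes tested were called higher and 8.22% lower. With MitoGamide, 6 were higher (Aqp2, Aqp3, Scnn1a, Scnn1b, Scnn1g and Sgk1) and 0 lower, against 7.71% higher and 6.60% lower among all genes. For that 0, Hsd11b1 was the only one of the 10 genes with a negative difference, and its unadjusted p was 0.371. DESeq2 also called 0 of the genes lower. In the MitoGamide groups, the first principal component ranged from -40.2 to -6.68 in WT and from -65.9 to -33.3 in Akita mice, and with it as a covariate 0 of the 6 calls remained, at log2 differences of 0.36 to 0.81. The count of 2386 genes called with MitoGamide was 1404 without Akita MitoGamide replicate 2 and 1368, 1248, 1451 and 1388 without WT MitoGamide replicates 1 to 4, in a range from 1248 to 2822 with single libraries left out. On water, only Sgk1 was called, higher in Akita mice, against 0.186% of all genes higher and 0.366% lower. The count of 101 genes ranged from 32 to 94 with single libraries left out, and was 32 to 59 without Akita water replicate 1, 2, 4 or 5 or WT water replicate 1 or 4. With MitoQ, Sgk1 was higher and Hsd11b1 lower, against 0.265% higher and 0.292% lower. The count was 101 genes as well, and 270 without WT MitoQ replicate 3, 35 without Akita MitoQ replicate 5 and 48 to 57 without any one of the other 4 WT MitoQ libraries.

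The same comparisons can be read without a test, on CPM after TMM scaling. The reading is the number of genes whose 5 Akita values and 5 WT values did not overlap. This held for 3 of the 10 genes on the ethanol vehicle, 4 with MitoGamide, 3 on water and 3 with MitoQ. Among all genes tested, the shares were 12.7%, 12.8%, 2.51% and 2.85%. The 10 genes had a median log2 fold change of 0.39, 0.60, 0.12 and 0.28 in this order, where the median over all genes was -0.0021, 0.010, 0.0022 and -0.0014. Some of the separations rested on the scaling of a single library. Without TMM scaling, Scnn1a and Scnn1g overlapped on water, through Akita water replicate 2 (52.8 and 24.9 CPM). Hsd11b1 then overlapped with MitoQ, through WT MitoQ replicate 3 (15.5 CPM). In a fit of all 40 libraries with treatment as a covariate, 6 genes were higher (Aqp2, Aqp3, Scnn1a, Scnn1b, Scnn1g and Sgk1) and Hsd11b1 was lower, against 11.0% of all genes higher and 11.8% lower. These 7 calls were made again whichever 1 of the 40 libraries was left out. Aqp4, Avpr2 and Fxyd4 were not called.

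**Figure D2:**
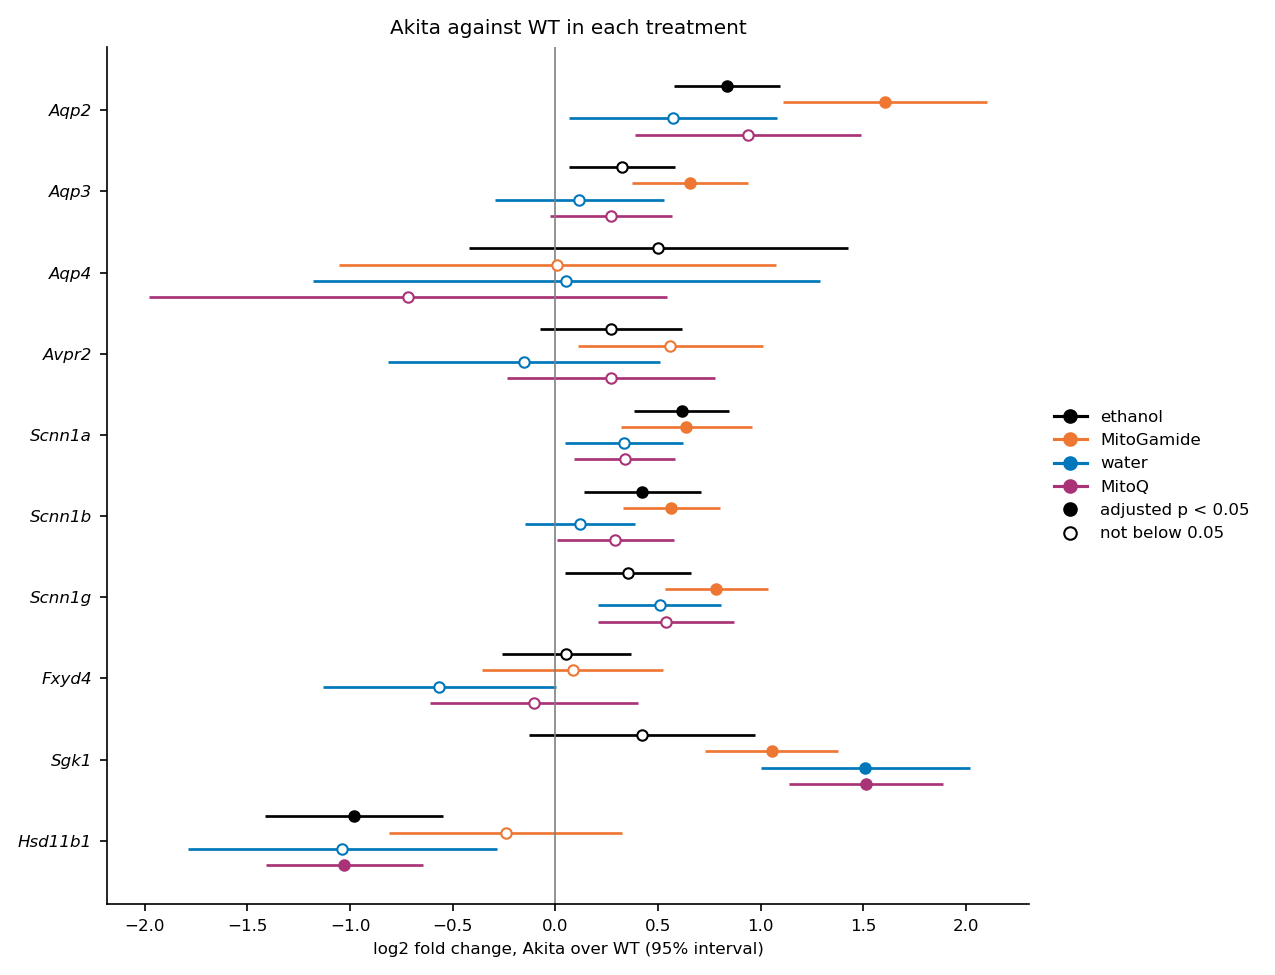
Log2 fold change of Akita over WT mice (horizontal axis) with its 95% interval for each gene in the 4 treatments; filled points have an adjusted p under 0.05. Every point of Aqp2, Aqp3, the 3 ENaC subunits and Sgk1 lies right of 0 and every point of Hsd11b1 left of 0, and the widest intervals are those of Aqp4.

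Among the water channels, Aqp2 differed most. On the ethanol vehicle, Aqp2 measured 53.7, 52.1, 58.3, 44.9 and 37.9 CPM in WT mice and 92.2, 85.8, 66.3, 91.9 and 99.1 CPM in Akita mice. With MitoGamide it measured 21.2, 33.3, 41.4, 41.9 and 38.6 CPM in WT and 56.9, 131, 103, 107 and 128 CPM in Akita mice. Every Akita value was above every WT value in both. The log2 fold change was 0.84 ± 0.12 (SE; adjusted p = 0.000501) on the vehicle and 1.61 ± 0.23 (adjusted p = 0.00147) with MitoGamide.

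In the water arm, the WT values of Aqp2 were more scattered. On water it measured 87.6, 45.3, 46.0, 41.6 and 68.1 CPM in WT and 80.0, 78.0, 71.8, 83.3 and 119 CPM in Akita mice. WT replicate 1, the library with the most Slc14a2, was above 4 of the 5 Akita values. The log2 difference was 0.57 ± 0.23 (adjusted p = 0.543), and 0.79 without that library (adjusted p = 0.277). No alternative called it (adjusted p from 0.0687 to 0.998). With MitoQ, Aqp2 measured 52.1, 31.3, 18.8, 31.5 and 55.4 CPM in WT and 67.0, 71.0, 63.7, 78.1 and 86.5 CPM in Akita mice, which did not overlap. The difference of 0.94 ± 0.25 was not called by edgeR (adjusted p = 0.155), but it was in 3 of 18 alternatives, by DESeq2 (adjusted p = 0.019996), with all 40 libraries in one fit (adjusted p = 0.0226) and without WT MitoQ replicates 1 and 5 (1.43, adjusted p = 0.0465). The adjusted p over these alternatives ranged from 0.019996 to 0.374. WT MitoQ replicate 3, with the TMM factor of 0.505, held the lowest value, and without it the difference was 0.78 (adjusted p = 0.0621). Over all treatments, Aqp2 was 1.97-fold higher in Akita mice (adjusted p = 1.26e-07).

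The promoter windows of Aqp2 and Sgk1 are shown because these genes had the largest rises over all treatments. The sequences are the 250 bases before the transcription start in RefSeq on GRCm38.p6, plus strand, at chr15:99578806-99579055 for Aqp2 and chr10:21993640-21993889 for the fifth of 6 start sites listed for Sgk1, which was picked because it is the only one of the 6 with a complete glucocorticoid response element. Capitals mark matches on either strand to TGACG, the core of the cAMP response element, and to TGTTCT, the hexamer read by glucocorticoid and mineralocorticoid receptors. In the Sgk1 window they also mark the 3 spacer bases of the complete element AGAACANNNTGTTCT.
Aqp2: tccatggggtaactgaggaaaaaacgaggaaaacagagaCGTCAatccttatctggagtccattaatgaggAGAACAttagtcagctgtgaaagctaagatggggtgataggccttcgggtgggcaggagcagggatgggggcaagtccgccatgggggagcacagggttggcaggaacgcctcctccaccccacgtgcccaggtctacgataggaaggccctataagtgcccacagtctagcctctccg
Sgk1: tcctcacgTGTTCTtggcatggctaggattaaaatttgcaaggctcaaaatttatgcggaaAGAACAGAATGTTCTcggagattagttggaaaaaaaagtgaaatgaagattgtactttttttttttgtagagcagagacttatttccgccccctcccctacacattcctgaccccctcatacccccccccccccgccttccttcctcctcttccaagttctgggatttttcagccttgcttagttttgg

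In the Aqp2 window, the match to TGACG begins 211 bases and the match to TGTTCT 179 bases before the start. Among all 32851 windows of this length, 17.8% hold TGACG and 16.1% hold TGTTCT, so that neither letter string is rare. The window of Avpr2, which was not called, holds TGTTCT 2 times, 59 and 50 bases before the start. The complete palindrome TGACGTCA, which contains TGACG and is present in 1.55% of windows, was not found in the window of any of the 8 genes with an entry. The Sgk1 window holds TGTTCT 3 times, and 2 of these overlap one match to the complete element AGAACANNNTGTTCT that begins 189 bases before the start. This complete element occurs in 3 of the 32851 windows (0.00913%), a share that supports nothing here because the window was picked for the match. The other 5 Sgk1 windows and those of Aqp3, Avpr2, Scnn1b, Scnn1g, Fxyd4 and Hsd11b1 do not hold it. A match is a description of letters and not of binding. On GRCm38, Aqp2 lies on chromosome 15 from 99579055 to 99584547 and Sgk1 on chromosome 10 from 21882184 to 21999903, both on the plus strand.

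Aqp3, the exit channel for water and glycerol, differed less than Aqp2. With MitoGamide, Aqp3 measured 34.1, 36.1, 40.4, 43.0 and 30.9 CPM in WT and 40.8, 55.7, 60.3, 65.7 and 61.1 CPM in Akita mice, a log2 fold change of 0.65 ± 0.13 (adjusted p = 0.00840). Only Akita replicate 1 lay within the WT range. On the ethanol vehicle, the values were 41.6, 41.2, 55.3, 43.1 and 35.1 CPM in WT and 56.2, 53.8, 40.4, 56.7 and 60.7 CPM in Akita mice, and the difference of 0.32 ± 0.12 was not called (adjusted p = 0.0844). The replicates numbered 3 of both genotypes were the ones that crossed. With single libraries left out, Aqp3 was called in 2 of 10 fits, those without replicate 3 of either genotype, and the adjusted p ranged from 0.0170 to 0.175. On water (0.12 ± 0.19) and with MitoQ (0.27 ± 0.14), Aqp3 was not called. Its difference on water turned to -0.047 without Akita water replicate 5. Over all treatments it was 1.26-fold higher (adjusted p = 0.00183).

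The ratio of both channels compares them within a library, where scaling between libraries drops out. The log2 ratio of Aqp2 to Aqp3, on the count scale, was 0.19 ± 0.15 (SD, n = 5) in WT and 0.70 ± 0.02 in Akita mice on the ethanol vehicle, where the highest WT ratio was 0.37 and the lowest Akita ratio 0.67. With MitoGamide it was -0.10 ± 0.37 in WT and 0.85 ± 0.30 in Akita mice, again without overlap, and with MitoQ -0.19 ± 0.55 and 0.58 ± 0.07. On water, 0.10 ± 0.57 and 0.63 ± 0.24, the groups overlapped. These ratios compare change between groups, since gene length sets their level.

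Aqp4, the second exit channel, is known mainly from the medullary part of the duct. Its median per kilobase was the lowest of the 10 genes. The WT range of Aqp4, 0.139 to 5.333 CPM per kb, held that of Avpr2, 0.749 to 4.075, so that the order of these genes was not settled. Aqp4 was not called in any genotype comparison. Its interval over all treatments ran from -0.66 to 0.54 on the log2 scale, so that a difference of up to about that size cannot be read. The levels ranged from 0.865 to 33.2 CPM within WT mice alone. The 3 libraries with the most Slc14a2 were also the 3 with the most Aqp4, at 25.02, 33.2 and 20.9 CPM, all of WT mice. Without them, the Aqp4 difference over all treatments was 0.38 (adjusted p = 0.373) where it had been -0.059. Their share of medulla was not measured otherwise, and its part in the Aqp4 values was not tested.

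**Figure D3:**
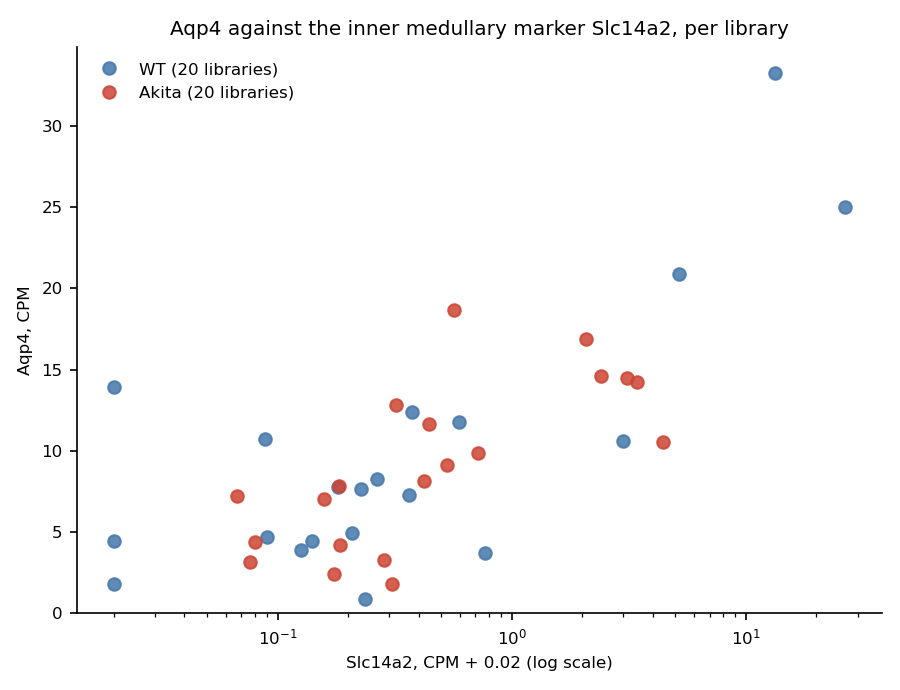
Aqp4 (vertical axis, CPM) against Slc14a2 (horizontal axis, CPM plus 0.02 on a log scale) in 40 libraries, WT in blue and Akita in red. The 3 WT libraries with Slc14a2 above 5 CPM have the 3 highest Aqp4 values, 20.9, 33.2 and 25.02 CPM.

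Avpr2, the vasopressin receptor, was low throughout, from 2.16 to 11.8 CPM. Over all treatments its log2 difference was 0.22 ± 0.12 and was not called (adjusted p = 0.209, interval -0.028 to 0.47). The highest value belonged to WT water replicate 1, and without the 3 libraries rich in Slc14a2 the difference was 0.38 and was called (adjusted p = 0.0172), the 1 of 48 alternatives that did so (range 0.0172 to 0.360). With MitoGamide the values were 4.42, 5.18, 4.86, 4.50 and 4.22 CPM in WT and 5.34, 8.96, 6.61, 8.23 and 3.89 CPM in Akita mice (0.56 ± 0.21, adjusted p = 0.0896). Akita MitoGamide replicate 5, one of the libraries with a low TMM factor, was the only Akita value below the WT values, and without it the adjusted p was 0.0120 (range over 17 alternatives 0.0120 to 0.762). The exons of Avpr2 share 2347 bases with Arhgap4 on the opposite strand. The kit keeps strand, but whether the counting used it is not given in the sources used here, so that reads of both genes may be mixed in these values.

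The ENaC subunits were all higher in Akita mice over all treatments, by 0.47 ± 0.07 for Scnn1a (adjusted p = 7.24e-07), 0.34 ± 0.07 for Scnn1b (adjusted p = 0.000168) and 0.53 ± 0.07 for Scnn1g (adjusted p = 3.52e-07). The alpha subunit, Scnn1a, is the one that the others need to reach the membrane. In the ethanol vehicle groups, Scnn1a measured 46.4, 56.3, 56.8, 42.8 and 48.7 CPM in WT and 71.6, 76.97, 70.5, 97.3 and 64.3 CPM in Akita mice, without overlap (0.62 ± 0.11, adjusted p = 0.00178). With MitoGamide it measured 61.3, 54.1, 54.8, 57.0 and 44.9 CPM in WT and 57.7, 88.9, 72.5, 82.2 and 112 CPM in Akita mice (0.64 ± 0.15, adjusted p = 0.0160). Without Akita MitoGamide replicate 5, which held the 112 CPM, the difference was 0.51 and was still called (adjusted p = 0.0152). Akita replicate 1 alone was within the WT range there.

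On water, Scnn1a did not overlap between genotypes either, with 59.7, 65.5, 52.0, 66.2 and 55.9 CPM in WT and 70.8, 69.8, 70.8, 72.6 and 93.4 CPM in Akita mice. This separation depended on TMM scaling. Without it, Akita water replicate 2 was at 52.8 CPM, below the WT values of 53.6 to 68.9 CPM. The test over all genes did not call Scnn1a (0.33 ± 0.13, adjusted p = 0.514), and without Akita water replicate 5 the difference was 0.25 (adjusted p = 0.939). With MitoQ the difference was of the same size, 0.34 ± 0.11 (adjusted p = 0.310), and the groups touched, with 58.5 CPM in the highest WT library and 57.8 in the lowest Akita library.

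Scnn1b and Scnn1g lie beside each other on chromosome 7 on the same strand, at 121865038 to 121918514 and 121734479 to 121768475 (GRCm38). Scnn1g, the gamma subunit, had its largest difference with MitoGamide, where it measured 22.3, 21.5, 24.7, 30.0 and 23.1 CPM in WT and 36.3, 43.9, 36.3, 38.1 and 50.3 CPM in Akita mice. These groups did not overlap, and the log2 fold change was 0.78 ± 0.12 (adjusted p = 0.00171). On water it measured 22.6, 26.1, 19.5, 22.7 and 27.4 CPM in WT and 28.3, 33.0, 37.7, 31.8 and 37.9 CPM in Akita mice, also without overlap (0.51 ± 0.14, adjusted p = 0.185). Without TMM scaling Scnn1g overlapped there, with Akita water replicate 2 at 24.9 CPM and WT water replicate 5 at 28.4 CPM. With MitoQ (0.54 ± 0.15, adjusted p = 0.182) and on the ethanol vehicle (0.35 ± 0.14, adjusted p = 0.112) it was not called. Of 18 alternatives, 2 called Scnn1g on water (adjusted p from 0.0217 to 0.719) and 1 did so with MitoQ (0.0426 to 0.758). Akita ethanol replicate 3 held the lowest Akita value, 21.5 CPM, and without it the adjusted p on the ethanol vehicle was 0.0245 (range over 17 alternatives 0.0245 to 0.255).

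Scnn1b, the beta subunit, had the smallest of the 3 differences over all treatments, though not on the ethanol vehicle, where that of Scnn1g was smaller. With MitoGamide it measured 26.8, 29.3, 28.4, 28.3 and 21.4 CPM in WT and 33.8, 41.6, 39.98, 33.3 and 45.2 CPM in Akita mice, without overlap (0.56 ± 0.11, adjusted p = 0.00707). On the ethanol vehicle the values were 20.7, 28.4, 29.5, 26.1 and 29.6 CPM in WT and 38.7, 42.0, 24.2, 37.3 and 35.8 CPM in Akita mice. This difference, 0.42 ± 0.13, was close to the threshold (adjusted p = 0.0442) and was called in 2 of 10 when single libraries were left out (adjusted p from 0.00338 to 0.112). On water (0.12 ± 0.12) and with MitoQ (0.29 ± 0.13) it was not called. The log2 ratio of Scnn1g to Scnn1b was -0.43 ± 0.18 (SD, n = 5) in WT and -0.04 ± 0.12 in Akita mice on water, and -0.14 ± 0.24 and 0.08 ± 0.13 with MitoGamide. With MitoQ it was -0.19 ± 0.14 and 0.06 ± 0.23, whereas on the ethanol vehicle it was -0.14 ± 0.11 and -0.21 ± 0.16. The genotypes overlapped in this ratio in each of these comparisons.

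Sgk1 had the largest difference over all treatments, 2.16-fold (1.11 ± 0.13 on the log2 scale, adjusted p = 1.90e-08). The libraries are of whole cortex, and the cells in which Sgk1 rose were not determined. On water Sgk1 measured 52.1, 51.6, 35.3, 57.4 and 59.2 CPM in WT and 219, 122, 104, 165 and 115 CPM in Akita mice. With MitoQ it measured 67.8, 37.6, 44.1, 39.6 and 55.1 CPM in WT and 150, 129, 149, 126 and 144 CPM in Akita mice. The lowest Akita value was above the highest WT value in both, and the log2 fold changes were 1.51 ± 0.23 (adjusted p = 0.0150) and 1.51 ± 0.17 (adjusted p = 0.00183). The call on water was lost by a small margin without WT water replicate 1 (adjusted p = 0.0501), without Akita water replicate 4 (0.0545) and without both Akita water libraries with a low TMM factor (0.0737), at differences of 1.45 to 1.68.

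With MitoGamide, Sgk1 measured 50.3, 67.9, 53.8, 57.0 and 77.9 CPM in WT and 96.1, 154, 123, 136 and 113 CPM in Akita mice, again without overlap (1.05 ± 0.15, adjusted p = 0.00141). The ethanol vehicle was the exception. There, Sgk1 measured 56.0, 59.4, 116, 65.8 and 43.4 CPM in WT and 68.3, 65.6, 147, 87.6 and 85.4 CPM in Akita mice, and the difference of 0.42 ± 0.26 was not called (adjusted p = 0.294). Replicate 3 was the highest library of each genotype, and the difference depended on them. It was 0.71 without WT replicate 3 (adjusted p = 0.0399), the 1 call in 10 fits with single libraries left out, and 0.19 without Akita replicate 3 (adjusted p = 0.629). The difference between the diabetes effects of the vehicles, ethanol less water, was -1.08 ± 0.38 for Sgk1, with an unadjusted p of 0.00937 and an adjusted p of 1.00.

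Fxyd4, the modulator of the sodium pump, was low, between 3.66 and 13.5 CPM, and was not called in any comparison. Its difference over all treatments was -0.14 ± 0.12 (adjusted p = 0.419, interval -0.38 to 0.092). The largest difference was on water, with 13.5, 8.09, 9.09, 8.48 and 6.04 CPM in WT and 4.62, 7.30, 8.28, 3.66 and 6.998 CPM in Akita mice (-0.57 ± 0.26, adjusted p = 0.662). The value of 13.5 CPM belonged to WT water replicate 1, and without it the difference was -0.36 (adjusted p = 1.00, and from 0.543 to 1.00 over all single libraries left out).

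Hsd11b1, on chromosome 1 from 193221634 to 193264075 (GRCm38, minus strand), was the only one of the 10 genes that fell. With the ethanol vehicle it measured 80.0, 54.6, 39.9, 31.1 and 69.7 CPM in WT and 27.2, 28.3, 29.2, 25.1 and 28.0 CPM in Akita mice. The Akita values were nearly constant, with an SD of 1.52 CPM against 20.3 CPM in WT mice, and they did not overlap (-0.98 ± 0.20, adjusted p = 0.00509). With MitoQ it measured 47.9, 50.6, 30.7, 64.2 and 56.0 CPM in WT and 26.2, 25.2, 26.9, 20.6 and 23.8 CPM in Akita mice (-1.03 ± 0.18, adjusted p = 0.0225), a call made in 3 of 10 when single libraries were left out (adjusted p from 0.000804 to 0.0928). It was -1.16 and called without WT MitoQ replicate 3 (adjusted p = 0.000804), and -0.98 and not called without WT MitoQ replicates 1 and 5 (adjusted p = 0.244). On water, it measured 86.0, 27.1, 28.4, 25.1 and 59.4 CPM in WT mice, of which 2 values stood above the other 3, and Akita mice measured 24.9, 23.3, 21.5, 25.7 and 14.9 CPM. That difference, -1.04 ± 0.35, was not called (adjusted p = 0.359), and it was -0.66 without WT water replicate 1 (adjusted p = 0.831).

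With MitoGamide, the genotypes overlapped in Hsd11b1, with 40.9, 33.0, 43.0, 34.96 and 93.4 CPM in WT and 44.6, 37.5, 30.6, 39.7 and 52.0 CPM in Akita mice (-0.24 ± 0.26, adjusted p = 0.558). Without WT MitoGamide replicate 5 the difference was 0.14. Over all treatments, Hsd11b1 in Akita mice was 0.562 of the WT level (adjusted p = 2.87e-05). Of 6 proximal tubule markers, 3 were also lower over all treatments, Lrp2 by 0.38, Slc34a1 by 0.29 and Slc7a13 by 1.61 on the log2 scale, and 0 were higher by edgeR, where these 3 were also the ones with an unadjusted p under 0.05. The summed level of the 6 markers ranged from 11185 to 14071 CPM in WT and from 8233 to 11071 CPM in Akita mice on the ethanol vehicle, where Hsd11b1 fell. With MitoGamide, where Hsd11b1 was not called and its groups overlapped, it ranged from 11673 to 12947 CPM in WT and from 7288 to 9908 CPM in Akita mice, and 3 of the 6 markers were lower. With MitoQ, where Hsd11b1 was also called lower, 0 of the 6 markers were called lower. Their sum overlapped there, from 7131 to 12225 CPM in WT and from 7050 to 10570 CPM in Akita mice. On water, where Hsd11b1 was not called, 1 marker was lower. The sum overlapped as well, from 7297 to 11934 CPM in WT and from 6836 to 10113 CPM in Akita mice. The part of these markers in the Hsd11b1 result was not tested.

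Each drug was compared with its own vehicle within a genotype, to ask whether MitoGamide or MitoQ changed these genes. MitoGamide in Akita mice changed 1 of the 10, Hsd11b1, in a comparison that called 1.26% of all genes. That background of 214 genes was between 0 and 4 genes without any one of the 5 Akita ethanol libraries. It was 13, 101 and 30 genes without Akita MitoGamide replicates 2, 3 and 4, and 802 without replicate 5. The 5 values of Hsd11b1 with MitoGamide (30.6 to 52.0 CPM) were all above the 5 on the vehicle (25.1 to 29.2 CPM), and the log2 fold change was 0.57 ± 0.12 (adjusted p = 0.0417). With single libraries left out, this call was made in 2 of 10 (adjusted p from 0.0210 to 0.119), and the difference ranged from 0.48 to 0.66. In the same comparison the endothelial markers Pecam1 (0.62), Emcn (0.59) and Kdr (0.36) all had positive differences with an unadjusted p under 0.05, of which 0 of 3 were called (adjusted p from 0.0544 to 0.116). Their summed level ranged from 147 to 188 CPM on the vehicle and from 198 to 291 CPM with MitoGamide, without overlap, and their part in the Hsd11b1 result was not tested. Scnn1g (0.41 ± 0.14, adjusted p = 0.136) and Sgk1 (0.47 ± 0.21, adjusted p = 0.226) were higher in value with MitoGamide and were not called. Aqp2 was 0.28 higher, with an interval from -0.13 to 0.69, and turned to -0.23 with the first principal component as a covariate.

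In WT mice, MitoGamide changed 0 of the 10 genes by edgeR and by DESeq2, and 1 of them, Aqp2, had an unadjusted p under 0.05 (-0.49 ± 0.17, adjusted p = 0.339). The comparison called 0% of all genes by edgeR, with 1841 genes at an unadjusted p under 0.05 and 73 called by DESeq2. In the test of whether the MitoGamide effect depended on genotype, the difference was 0.76 ± 0.27 for Aqp2 (adjusted p = 0.582, and 0.27 with the first principal component as a covariate) and 0.42 ± 0.20 for Scnn1g (adjusted p = 0.593). These 2 genes had an unadjusted p under 0.05, 0 of the 10 were called by edgeR or DESeq2, and 0% of all genes were called by edgeR (1435 at an unadjusted p under 0.05, 0 by DESeq2). For Aqp2, WT values with MitoGamide were 21.2 to 41.9 CPM against 37.9 to 58.3 on the vehicle, and Akita values 56.9 to 131 against 66.3 to 99.1.

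MitoQ changed 0 of the 10 genes in Akita mice, where the largest difference was that of Aqp2, -0.23 ± 0.15, and 0 had an unadjusted p under 0.05. The comparison called 0% of all genes by edgeR and 0 by DESeq2 (363 at an unadjusted p under 0.05). In WT mice, MitoQ also changed 0 of the 10. Aqp3 did not overlap there, with 30.6 to 46.2 CPM with MitoQ and 46.8 to 66.3 CPM on water, but the test did not call it (-0.35 ± 0.15, unadjusted p = 0.0388, adjusted p = 1.00). Without TMM scaling the groups overlapped, with WT MitoQ replicate 5 at 51.9 CPM and WT water replicate 4 at 45.5 CPM. Among all genes, 0% were called by edgeR in WT mice and 2 genes by DESeq2 (575 at an unadjusted p under 0.05). The MitoQ effect did not differ between genotypes by the test for any of the 10 genes, 0 of which had an unadjusted p under 0.05, nor for any gene in all (0%, 207 at an unadjusted p under 0.05, 0 by DESeq2). The intervals are wide: that of Aqp2 ran from -0.37 to 1.11.

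**Figure D4:**
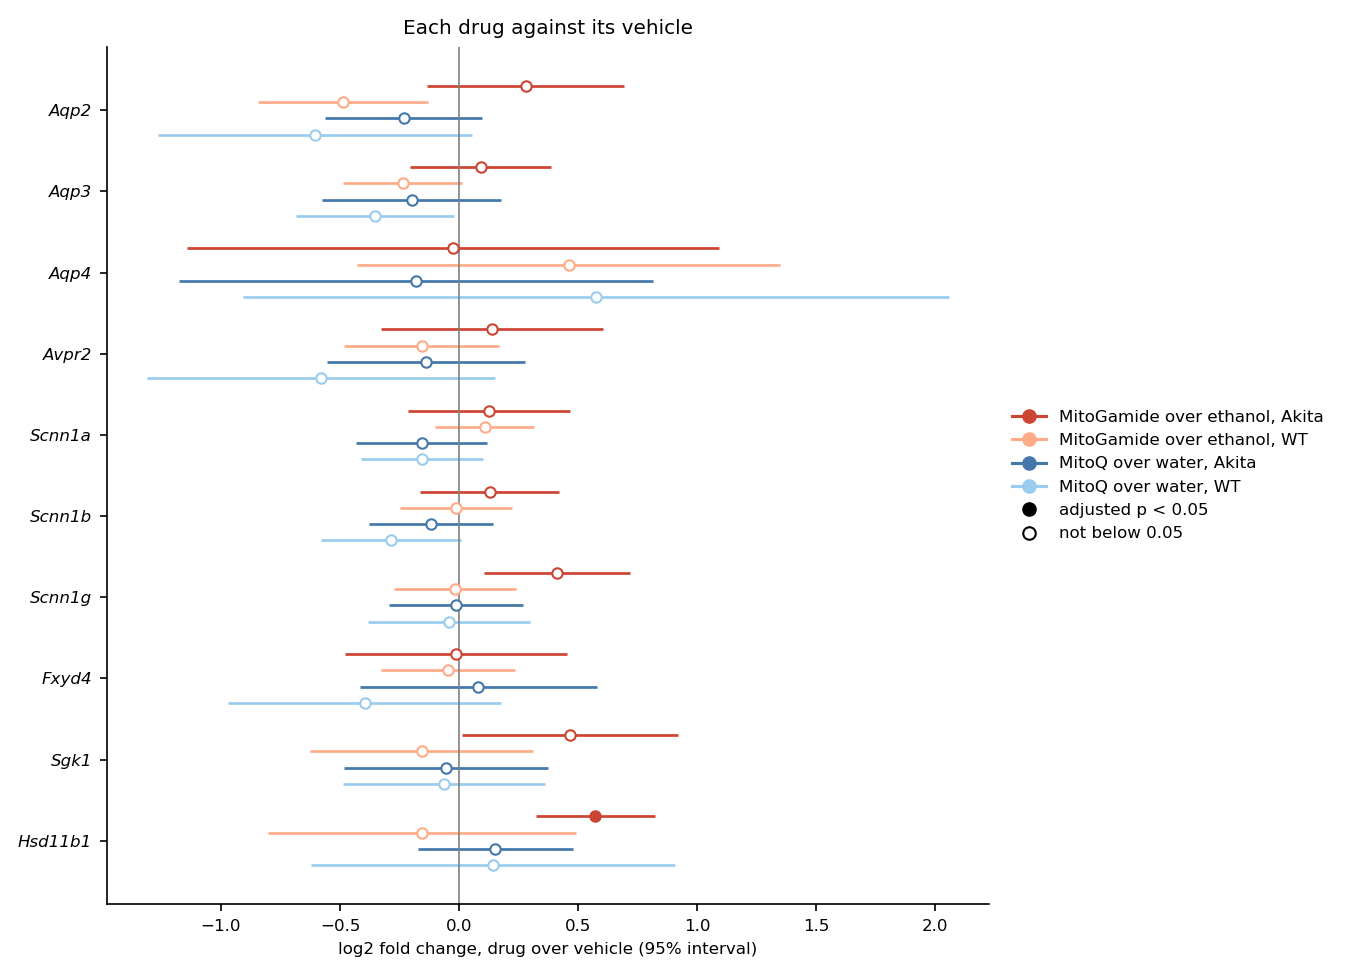
Log2 fold change of each drug over its vehicle (horizontal axis) with its 95% interval, for MitoGamide (reds) and MitoQ (blues) in Akita and WT mice; filled points have an adjusted p under 0.05. Hsd11b1 with MitoGamide in Akita mice, at 0.57, is the only filled point.

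The vehicles were compared as well, with the arm and the vehicle being one and the same in this design, so that they cannot be told apart. In Akita mice, ethanol against water called 12.7% of all genes and 0 of the 10. The 2283 genes behind this share became 1 or 2 without any one of Akita ethanol replicates 1, 2, 3 and 5 or Akita water replicates 3 and 5. They became 1178 without Akita ethanol replicate 4 and 132, 6120 and 6496 without Akita water replicates 2, 4 and 1. Sgk1 was -0.66 ± 0.25 lower in value on ethanol (adjusted p = 0.0812) and Hsd11b1 0.33 ± 0.13 higher (adjusted p = 0.0911), the 2 genes with an unadjusted p under 0.05, and DESeq2 called 0 of the 10. In WT mice, 0 of the 10 were called by either tool and 0 had an unadjusted p under 0.05, and 0% of all genes were called by edgeR (4959 at an unadjusted p under 0.05, 724 by DESeq2). Without WT water replicate 5, edgeR called 5216 genes there, and 0 or 1 without any other single library. The diabetes effect differed between vehicles for 0 of the 10 genes by edgeR or DESeq2 and 0% of all genes by edgeR (767 at an unadjusted p under 0.05, 2 by DESeq2), with Sgk1 the 1 gene of the 10 at an unadjusted p under 0.05.

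Genes of the same pathways were followed in lists, over all treatments, where 11.0% of genes were called higher and 11.8% lower. Of 17 regulators of aldosterone action and ENaC, 5 were higher and 0 lower, with a median difference of 0.079 against -0.022 for all genes. By edgeR, 6 had an unadjusted p under 0.05, the 5 and Cnksr3 (0.13), so that 0 were lower at that level either. St14, the membrane protease matriptase, was higher by 0.38 ± 0.05 (adjusted p = 1.16e-06), and Usp2, a deubiquitinase that acts on ENaC, by 0.46 ± 0.09 (adjusted p = 0.000135). Both were also called on the ethanol vehicle and with MitoGamide, and Nr3c2, the mineralocorticoid receptor gene, was called on the ethanol vehicle alone (0.27 ± 0.08, adjusted p = 0.0415). Per1 (0.76), Wnk1 (0.31) and Sgk2 (0.16) completed the 5; they passed no single comparison and are named because the count is small. Over all treatments, Nr3c2 (0.079, interval -0.034 to 0.19), Hsd11b2 (-0.021) and Nedd4l, which encodes NEDD4-2 (0.0054), were not called.

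The list of vasopressin and cAMP signalling held 16 genes, of which 2 were higher and 1 lower, a share near that of all genes. Avpr1a, which encodes another vasopressin receptor, fell by 0.28 ± 0.10 (adjusted p = 0.0311). Ednrb (0.52) and Pde4d (0.24), named after their values were seen, were the higher ones. For Ednrb, Akita MitoGamide replicate 5 measured 155 CPM where the other 4 of its group measured 23.0 to 31.5 CPM, and without that library the difference was 0.29 and was not called (adjusted p = 0.0506, against 0.0460 with it). Among aquaporins outside the 10 genes, 4 passed the filter and 2 of them rose, Aqp6 of intercalated cells by 0.46 ± 0.13 (adjusted p = 0.00694) and Aqp7, a glycerol channel of the proximal tubule, by 0.40 ± 0.07 (adjusted p = 1.63e-05).

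Among potassium channel and sodium pump genes, the pump subunit gene Atp1b1, expressed along the whole nephron, rose by 0.32 ± 0.07 (adjusted p = 0.000300), and Kcnma1, named after its value was seen, rose by 0.52. The potassium channel of principal cells and thick limb, Kcnj1, did not pass the test (0.020, interval -0.14 to 0.18). In the tonicity response, 1 of 6 genes was higher (Slc6a6, 0.26, named after its value was seen) and 2 were lower. Akr1b3, the aldose reductase that makes sorbitol, fell by 0.44 ± 0.11 (adjusted p = 0.00173) and the chaperone Hspa4l by 0.40 ± 0.08 (adjusted p = 0.000247).

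**Figure D5:**
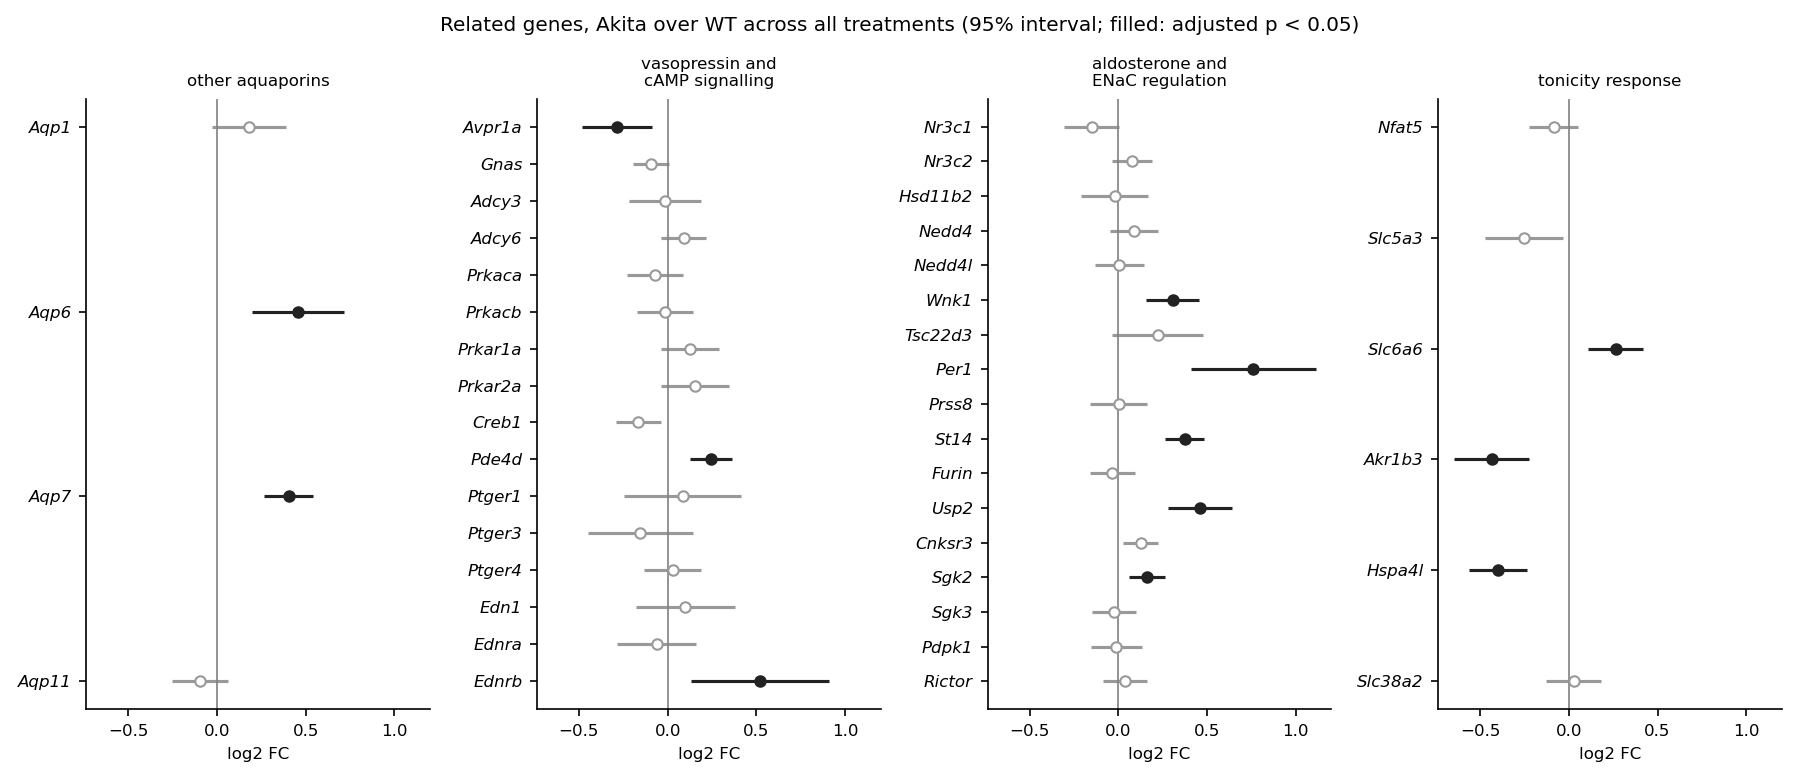
Log2 fold change of Akita over WT mice over all treatments (horizontal axis) with its 95% interval for the listed genes that passed the filter, in 4 lists; filled points have an adjusted p under 0.05. Filled points to the right include St14 and Usp2 among ENaC regulators and Aqp6 and Aqp7 among the other aquaporins, while Akr1b3 and Hspa4l lie left of 0.

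Of the principal cell markers outside the 10 genes, Hsd11b2, Npnt, Apela and Elf5, 0 were higher over all treatments and 1, Npnt, was lower (-0.26 ± 0.09, adjusted p = 0.0344). None of the other 3 had an unadjusted p under 0.05 by edgeR. On the ethanol vehicle, Npnt was lower too (-0.50 ± 0.09, adjusted p = 0.00190), while Hsd11b2 (0.27 ± 0.11, adjusted p = 0.120), Apela (0.25 ± 0.14, adjusted p = 0.243) and Elf5 (0.17 ± 0.25, adjusted p = 0.713) had positive differences that were not called. The log2 ratio of Aqp2 to Hsd11b2 was -0.25 ± 0.32 (SD, n = 5) in WT and 0.33 ± 0.12 in Akita mice on the ethanol vehicle, and -0.56 ± 0.35 and 0.96 ± 0.58 with MitoGamide, without overlap in either. With MitoQ it was -0.53 ± 0.62 and 0.47 ± 0.19, also without overlap, while on water (-0.23 ± 0.55 and 0.83 ± 0.31) the groups overlapped. Of 6 intercalated cell markers, 0 were called over all treatments by edgeR, and 2 had an unadjusted p under 0.05. Markers of other cell types differed between the genotypes as well, and not all of their lists and counts are reported here. The podocyte marker Nphs1 was higher by 0.47 over all treatments, and was also called on the ethanol vehicle and with MitoGamide. Of 3 markers of the distal convoluted tubule, 1 was higher, Trpm6 by 0.59, in the same comparisons. The summed markers of the distal convoluted tubule ranged from 490 to 897 CPM in WT and from 821 to 965 CPM in Akita mice on the ethanol vehicle. Of the thick ascending limb, 1 of 3 markers was lower, Umod, named after its value was seen, by 0.50. Of the endothelial markers, Pecam1 was higher by 0.27 and Emcn lower by 0.22, both also named after their values were seen. Of 4 urothelial markers, 1 passed the filter over all treatments and was higher, Upk1a, named after its value was seen, by 1.11 ± 0.32 (adjusted p = 0.00869). The summed urothelial markers were low and overlapped, from 0.128 to 2.16 CPM in WT and from 0.641 to 1.14 CPM in Akita mice on the ethanol vehicle, and from 0.493 to 2.44 and 0.480 to 11.9 CPM on water. The part of these cell types in the results of the 10 genes was not tested.

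Finally, the genes whose levels followed each of the 10 most closely over the 40 libraries were sought among 12154 genes, by Pearson's r of log2 CPM. All points share their libraries and the genotype difference, so that these values are a description. The genes near Aqp2 included Rogdi (0.84), and those near Scnn1g included Fam129a (0.87) and Car15 (0.85). Near Scnn1b were Kcnq1 (0.88), which encodes a potassium channel, and Sdk1 (0.79), and Avpr2 was followed by Bsnd (0.79), Adap1 (0.73) and Prom2 (0.72). Scnn1a was followed by Tmprss2, Mt1 and Slc2a9, all at 0.85. After the group means were removed, the r of Scnn1b with Kcnq1 was 0.81 and that of Aqp2 with Rogdi 0.41.

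The nearest genes of Sgk1 were Kynu (0.81), Acnat1 (0.80) and Ugt1a10 (0.80), but within groups Kynu had an r of only 0.26. Hsd11b1 was followed by Frzb (0.86), Tspan13 (0.84) and Selenop (0.81), and within groups Tspan13 kept 0.83. Aqp4 was followed by Mettl7a2 (0.88), Methig1 (0.86) and Serpina1f (0.86), of which Mettl7a2 and Methig1 are overlapping or near-identical genes whose reads may be divided between them. Aqp3 was followed by C77080, Tmem151a and St14, all at 0.75, and Fxyd4 by Apba3 (0.69), Slc25a38 (0.68) and Acy1 (0.66). Among the 10 genes, the r within groups was 0.70 between Scnn1b and Scnn1g, 0.56 between Scnn1a and Scnn1b and 0.42 between Scnn1a and Scnn1g. It was 0.54 between Aqp2 and Avpr2, 0.53 between Avpr2 and Fxyd4, 0.51 between Aqp2 and Aqp3 and 0.49 between Aqp2 and Aqp4. Within groups, Sgk1 had an r of -0.43 with Scnn1b and -0.26 with Scnn1g, although all 3 were higher in Akita mice.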

How the data were processed

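Renal cortex RNA of 40 mice was depleted of ribosomal RNA and sequenced. Skewer trimming, kallisto 0.46.1 against GENCODE mouse transcripts (GRCm38) and summing to genes in R 4.0.2 were done by the authors. Each deposited value is an estimated count rounded to a whole number and not scaled. A read that matches several transcripts is divided among them, so that near-identical genes may exchange counts.

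The 10 genes and the related lists were chosen with earlier results of these data known. Groups follow the labels. Counts were tested in R 4.3.3 with edgeR 4.0.16 (TMM scaling, quasi-likelihood test, Benjamini-Hochberg adjustment over all genes) on the 10 libraries of a comparison, 20 for a difference of effects and 40 with treatment as a covariate. Genes averaging under 10 counts were left out, and an adjusted p under 0.05 was a call. Standard errors are the log2 fold change divided by the root of F. Likeness was sought among the 12154 genes averaging 50 counts or more, on log2 CPM with a prior count of 2. Named beside the 10 genes were listed genes called over all treatments and in a single comparison, and the 3 most similar genes, of which some are not reported here, nor are the counts of their lists. Positions came from GENCODE mouse release 21, which held 99.5% of the gene identifiers, and promoters from RefSeq (8 of the 10 genes). Alternatives were DESeq2 1.42.0, RLE scaling, no filter, all 40 libraries in one fit, a replicate block and each library left out. Leaving out libraries for Slc14a2, TMM factor or number 3, and the first principal component as a covariate, were chosen after seeing the data. The methods were tested on simulated counts.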

Additional observations from a re-analysis of the deposited data

Results flagged for a closer look

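In 80 sets of 5 values (10 genes in 8 groups), Dixon's test set 1 value apart in 5 of the sets, where chance gives about 4 at 1 in 20. These values came from 4 libraries. Akita water replicate 5 was high in Aqp2, at 119 CPM where the other 4 measured 71.8 to 83.3, and in Scnn1a, at 93.4 CPM where the others measured 69.8 to 72.6. The same library had a TMM factor of 0.834 and the lowest total count. WT water replicate 2 was high in Aqp3, at 66.3 CPM against 46.8 to 50.6 CPM in the others. Akita ethanol replicate 3 was high in Sgk1, at 147 CPM against 65.6 to 87.6 CPM. WT MitoGamide replicate 5 was high in Hsd11b1, at 93.4 CPM against 33.0 to 43.0 CPM.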

How the results depend on the processing

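Over all treatments, 7 genes were called under each alternative run and with any 1 library left out, except that 8 were called without the 3 libraries rich in Slc14a2, where Avpr2 was added. In single comparisons the number called depended on the setting. On water it was 1, and 3 with all 40 libraries in one fit, 2 with the first principal component, 0 without the Slc14a2-rich library or without the libraries with a low TMM factor, and 0 to 1 with 1 library left out. With MitoQ it was 2, 4 with all 40 libraries, and 1 to 2 with 1 library left out. Aqp2 with MitoQ was also called by DESeq2 and without the Slc14a2-rich libraries, and Hsd11b1 was not called without these libraries. For Akita against WT with MitoGamide it was 6, 0 with the first principal component, and 6 to 7 with 1 library left out. For MitoGamide in Akita mice it was 1, 0 with all 40 libraries or the first principal component, and 0 to 1 with 1 library left out. For ethanol against water in Akita mice it was 0, 1 with all 40 libraries, and 0 to 1 with 1 library left out. For the ethanol vehicle it was 4, 3 with all 40 libraries or the first principal component, 3 to 6 with 1 library left out, and 7 without both replicates numbered 3, which were picked for their values in these genes, so that this count is no support. The causes were not tested. Among all genes, the 2386 calls with MitoGamide went to 74 with the first principal component, the 2910 calls on the ethanol vehicle to 844 with all 40 libraries, and the 214 calls for MitoGamide in Akita mice to 1022 by DESeq2. RLE scaling and no filter moved none of the counts of the 10 genes.

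Whether equal replicate numbers pair mice was not settled. In 0 of 10 comparisons did every pair of equal number deviate together, at an r over 0.1. This rule cannot exclude a pairing of some of the mice. The number of pairs over 0.1 ranged from 0 to 3 per comparison. It was 3 for Akita against WT on water (r from -0.451 to 0.459) and for MitoQ against water in Akita mice (-0.151 to 0.655). With a replicate block, the count with MitoQ was 1 (Hsd11b1 lost, adjusted p = 0.112) and that for MitoGamide in Akita mice 0 (Hsd11b1, adjusted p = 0.129). On the ethanol vehicle the block lost Scnn1b (adjusted p = 0.0751) and gained Sgk1 (adjusted p = 0.0232).

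Signs turned as follows. Aqp4 with MitoGamide was -0.035 by DESeq2, -0.036 with all 40 libraries, -0.21 with the block and -0.033 with the first principal component. Without the Slc14a2-rich libraries, Aqp4 was 0.35 with MitoQ and 0.38 over all treatments, Avpr2 0.13 on water and Fxyd4 0.23 with MitoQ. Aqp3 on water was -0.17 without the libraries with a low TMM factor, and Aqp2 for MitoGamide in Akita mice -0.23 with the first principal component. With 1 library left out, Aqp3 on water ranged from -0.047 to 0.22, Aqp4 from -0.19 to 0.70 on water, -0.60 to 0.26 with MitoGamide and -0.17 to 0.081 over all treatments, Avpr2 on water from -0.34 to 0.13, Fxyd4 from -0.049 to 0.16 on the ethanol vehicle, -0.075 to 0.21 with MitoGamide and -0.24 to 0.027 with MitoQ, and Hsd11b1 with MitoGamide from -0.35 to 0.14. Aqp4, Avpr2 and Fxyd4 had the fewest counts, down to 0.865, 2.16 and 3.66 CPM, and small differences in them cannot be read from these libraries.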
